A study of Mus musculus with 2 samples.

Results

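The 44 genes described here encode transcription factors with a basic leucine zipper (bZIP), of the AP-1, ATF/CREB, C/EBP, Maf and related families. The list was set by gene name, but it was chosen with earlier results of these data known. A gene was counted as marked when an ARID4B interval overlapped its mouse GRCm38 gene record or the 1 kb either side of it by at least 1 bp. All 44 matched a protein-coding gene, out of 21887 protein-coding genes on the assembled chromosomes, and 32 of the 44 were marked.

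ARID4B is a chromatin protein with an AT-rich interaction domain and a subunit of the SIN3-histone deacetylase corepressor complex. The study mapped it in the newborn testis, at the age when the niche of the spermatogonial stem cells is established. The chromatin came from 1 pool of 108 testes of wild type mice at postnatal day 1.5, on a hybrid background of C57BL6/J and 129/SvEv, and was precipitated with an antibody against ARID4B. The control was input DNA of wild type testes of the same background and age, with no antibody, and its own values were not analysed here. With a single library of each kind there is no replicate error for any value, and no difference between genes was tested. No ChIP from cells lacking ARID4B was analysed here, and RNA was not measured.

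bZIP factors bind DNA as dimers: the leucine zippers of 2 chains pair, and the adjoining basic regions grip the major groove. Who pairs with whom sets the sequence that is read. Jun and Fos dimers read the AP-1 element, CREB and ATF dimers the cyclic AMP response element (CRE), C/EBP dimers their own palindrome, and dimers of small Maf with Nfe2l or Bach proteins the antioxidant and Maf elements. Many of these genes are switched on within minutes of a growth factor, hormone or stress signal. In the testis, CREB carries the cyclic AMP signal of follicle-stimulating hormone in Sertoli cells, and Crem is needed for the maturation of spermatids.

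The deposited list held 6632 intervals with a median score of 124.98, a lowest score of 70.02 and a highest of 1760.61. The score is the authors' own value for each interval, is taken here as larger for stronger enrichment, and has no stated scale. Read depth is unknown, so the weakest enrichment that could be listed is unknown too, and a gene without an interval is only a gene not listed. Whole testes were used, and the cell type behind an interval is not known. Of the genes that mark testis cell types, all 5 Sertoli genes examined (Sox9, Wt1, Amh, Dmrt1 and Gata4) had an interval. So did 1 of 4 germ cell genes (Dazl), 1 of 3 peritubular genes (Des) and 0 of 9 Leydig, endothelial and macrophage genes. The share over all protein-coding genes was 30.7%, and the germ cell and peritubular counts were near it. The lists are short, and their differences were not tested. An interval does not show that a gene is expressed, and the part of the cell makeup in the results below was not tested.

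Of the 44 bZIP genes, 32 (72.7%) had an interval, against 30.7% of all protein-coding genes. These 32 genes held 40 intervals. The members' gene records had a median length of 10.3 kb, against 17.2 kb for all protein-coding genes. Protein-coding genes were split by length into 3 classes of equal size. In the short class (up to 8.74 kb) 15 of 20 members were marked (75%) against 19.6% of all genes of that class. In the middle class the figures were 11 of 13 (84.6%) against 31.5%. In the long class (over 31.2 kb) they were 6 of 11 (54.5%) against 40.9%, the smallest gap of the 3. The 44 genes were not a random draw, and the counts describe this interval list alone.

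The scores of the marked members spread widely. Their best intervals ranged from 70.37 at Crem, near the lowest score of the list, to 876.04 at Mafa, with quartiles of 101.77 and 295.76 and a median of 157.98. For all marked protein-coding genes the median was 131.83 (quartiles 96.61 and 197.02). This order depended on the setting. The members' median lay in a gap between 130.27 at Nfe2l1 and 185.69 at Jdp2, so the loss of a single member could move it far. With the gene record alone the medians were 157.98 and 131.45, and within 1 kb of an end of the record 188.52 and 132.24. With an interval's midpoint required within the window, where Fosl1 was no longer marked, they were 130.27 and 131.18, and without shared intervals 129.66 and 128.49. At the upper end, 4 of the 32 (12.5%) had an interval among the 100 best scores, namely Mafa, Jund, Jun and Maf, against 1.83% of all marked genes. The limit of 100 was chosen after the scores were seen. Above the list's median score lay 19 of 32 members (59.4%), and 54.4% of all marked genes.

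**Figure D1:**
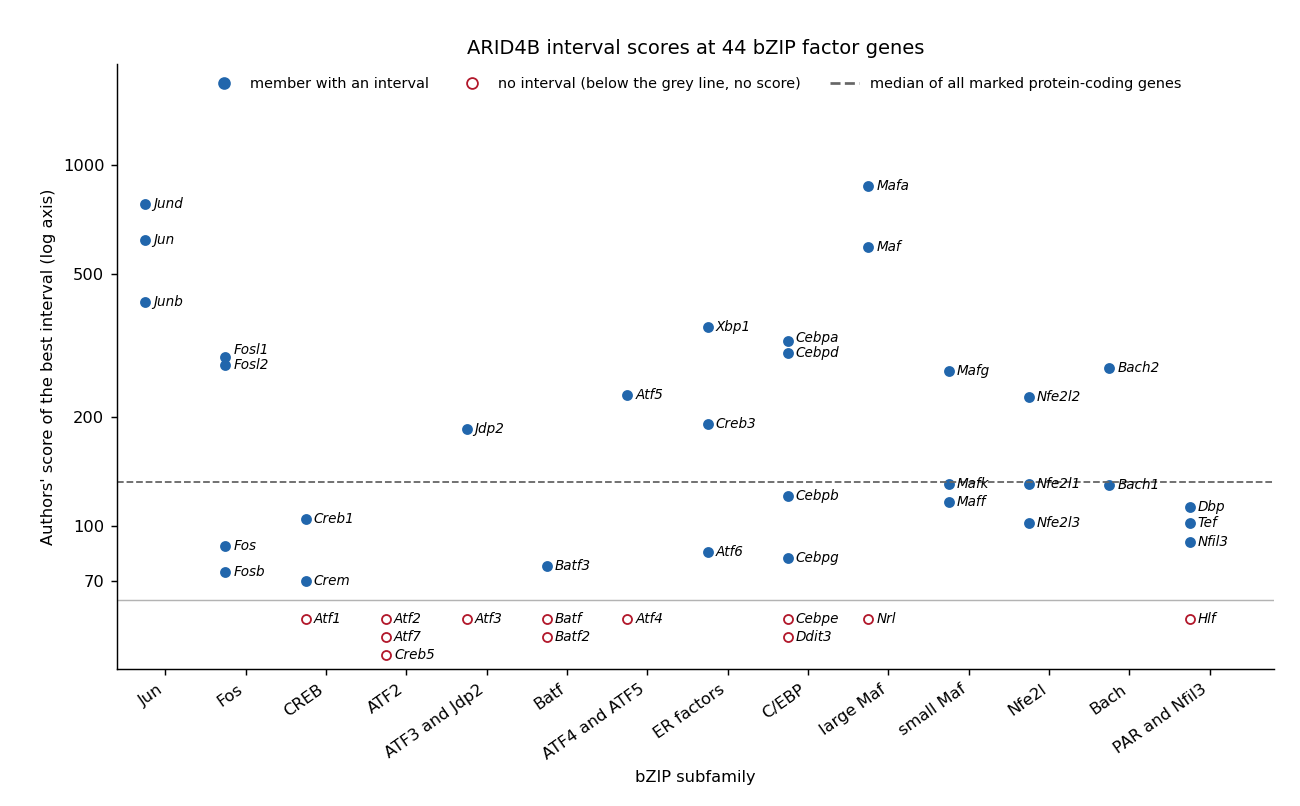
Score of the best ARID4B interval (vertical log axis, authors' score) for each of the 44 bZIP genes, by subfamily. Filled points are the 32 genes with an interval, open points below the grey line the 12 without (their height has no meaning), and the dashed line is the median of all marked protein-coding genes, 131.83. The 3 Jun genes and Maf and Mafa form the top of the plot, all 3 ATF2-group genes are open, and the marked PAR factors and CREB genes lie below the dashed line.

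The Jun genes encode the obligatory core of AP-1, able to pair with themselves and with Fos. All 3 were marked, against 30.7% of all protein-coding genes, and with high scores. Jund, the most constantly expressed of them in most tissues, had 780.89 (rank 24 of 6632) from an interval at chr8:70698317-70700625. Jun had 617.69 (rank 62), from an interval of 3936 bp at chr4:95049712-95053647. Junb had 416.44 (rank 213) from chr8:84977098-84979104, and a weak interval of 83.92 at the far end of its record. The lowest of the 3 best scores was above the highest of the Fos genes. These are known as intronless genes, and their intervals spread over the transcribed record rather than the promoter alone: the best interval covered 78.8% of the Jun record, 89.7% of the Junb record and 79.9% of the Jund record. The Jund interval also lay within 1 kb of Iqcn, so it cannot be assigned to Jund alone.

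The 3 Jun genes differed at the start of transcription listed by RefSeq. The intervals at Jun and Junb ran across it, whereas the Jund interval began 578 bp downstream of it. The 160 bases before each start are printed to show what the intervals at Jun and Junb include and the one at Jund leaves out (GRCm38.p6, RefSeq promoter table). They are written on the gene's strand, and capitals mark matches to the letters searched on both strands: CCAAT, TTGCNNAA, and TGACATCA, a variant of the AP-1 element.
Jun, chr4:95052223-95052382, minus strand: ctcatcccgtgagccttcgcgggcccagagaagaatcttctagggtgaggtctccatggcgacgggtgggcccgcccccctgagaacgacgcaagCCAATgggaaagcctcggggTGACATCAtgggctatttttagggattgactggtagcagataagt
Junb, chr8:84978749-84978908, minus strand: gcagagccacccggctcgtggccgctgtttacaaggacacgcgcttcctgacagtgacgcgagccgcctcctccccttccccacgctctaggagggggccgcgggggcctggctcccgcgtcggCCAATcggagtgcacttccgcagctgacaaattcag
Jund, chr8:70697579-70697738, plus strand: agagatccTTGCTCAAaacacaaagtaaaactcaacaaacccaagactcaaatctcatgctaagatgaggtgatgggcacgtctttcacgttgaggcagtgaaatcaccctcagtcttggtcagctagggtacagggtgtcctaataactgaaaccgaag
In Jun the CCAAT match began 65 bases and TGACATCA 45 bases before the start, and all 160 bases lay inside the interval. In Junb CCAAT began 36 bases before the start, again with all 160 bases inside the interval. None of the 160 bases of Jund lay in an interval. That stretch is also poor in CpG. The window of 250 bases before to 50 after the listed Jund start had an observed/expected CpG ratio of 0.18, against 0.59 at Jun and 0.67 at Junb. CCAAT occurs in 38.2% of all promoters of this length, TTGCNNAA in 10.2% and TGACATCA in 3.66%, so a match is a description and not a binding site.

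The Fos genes encode the partners that need Jun to bind DNA. All 4 were marked, at lower scores that fell into 2 levels. Fos itself had only 87.78, at chr12:85473602-85474708 across its start, and Fosb 74.29, from an interval that began 140 bp downstream of its start. The Fos-related genes had more: Fosl2 (Fra-2) had 279.31 at chr5:32135095-32137164, mostly upstream of its start. The interval credited to Fosl1 (Fra-1), with 293.95, lay wholly outside its record, 186 bp beyond the end, and also marked the neighbouring gene Ccdc85b. With the gene record alone counted, Fosl1 was not marked and 3 of 4 Fos genes remained. Together the 7 Jun and Fos genes were all marked (100%, against 30.7% of all protein-coding genes), with a median best score of 293.95.

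Genes of the ATF and CREB groups, the 3 Batf genes included and the factors of the endoplasmic reticulum set aside, were marked in 5 of 13 cases (38.5%, against 30.7% of all protein-coding genes). Creb1, the cyclic AMP effector, had 103.93 across its start (chr1:64531820-64533064). Its close relative Crem had 70.37, from an interval that reached past the upper end of its record. Atf1, which pairs with both, had none within 161.0 kb. The stress-kinase targets Atf2, Atf7 and Creb5 were all unmarked, 0 of 3, against the same 30.7%, and 3 genes are too few to differ clearly from it. The nearest intervals lay 17.7 kb from Atf2, 54.6 kb from Atf7 and 117.0 kb from Creb5. Jdp2, a repressor that pairs with Jun, had 185.69 at chr12:85598417-85599845, over 2 of its 3 listed starts. Atf3, the stress-induced repressor of the same group, had none within 40.3 kb.

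Atf4, the effector of the integrated stress response, was the member with the second longest distance to an interval, 241.0 kb, after Hlf with 247.0 kb. Its relative Atf5 had 229.44 at chr7:44816065-44817207, across its first start, in a place shared with Nup62 and Il4i1b. Of the Batf genes, which act in lymphoid and dendritic cells, Batf and Batf2 had none within 37.4 and 22.7 kb. Batf3 had 77.07, from the narrowest of the members' best intervals (450 bp), which ended 141 bp before the gene record began. With the record alone counted no Batf gene was marked.

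The 3 members placed in the group of the unfolded protein response and the secretory pathway were all marked (100%, against 30.7% of all protein-coding genes). Their relatives outside the members were not all marked. Creb3l2 had 92.05 and Creb3l1 83.16, and Atf6b, Creb3l3 and Creb3l4 had none. Xbp1, whose message is spliced by the sensor Ern1 under stress in the endoplasmic reticulum, had 354.98 at chr11:5520593-5522269. Creb3, held in the membrane until it is cut, had 191.34 from an interval across its start that lay mostly upstream, shared with Tln1. Atf6, likewise a membrane-held factor, had 84.42, inside the record within 1 kb of its upper end.

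C/EBP genes split by level. Cebpa, which drives myeloid and fat cell differentiation, had 324.46 at chr7:35117882-35120869, and Cebpd, an acute-phase factor, 301.2 at chr16:15886533-15888331, within 1 kb of Spidr. Cebpb, the paralog of Cebpa that also serves hormone responses in the ovary, had 120.73, from an interval that covered 83.9% of its short record. Cebpg, which lacks a full activation domain, had 81.41 in a place that overlaps the gene model Gm45095. The granulocyte factor Cebpe and the stress-induced Ddit3 (CHOP) had none within 23.7 and 14.9 kb. Thus 4 of 6 were marked (66.7%, against 30.7% of all protein-coding genes). With only intervals above the median score 2 of 6 were, against 16.7% of all protein-coding genes. With only unshared intervals 2 of 6 were, against 22.4%.

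The large Maf proteins carry an activation domain and define cell types. Mafa, known for insulin gene control in beta cells, had the highest score of all members, 876.04 (rank 17), from an interval at chr15:75745831-75748252 that covered 85.9% of its record. Maf had 590.9 (rank 69) at chr8:115705385-115708383, running past the upper end of its record. Nrl, the rod photoreceptor factor, had none within 27.3 kb.

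The small Maf proteins have no activation domain and serve as partners of the Nfe2l and Bach proteins. All 3 genes were marked, against 30.7% of all protein-coding genes, at moderate scores. Mafg carried 4 intervals, the most of any member. The best of them, 268.98, lay at the downstream end and was shared with Sirt7. Of the others, that with 122.09 covered the start, that with 135.54 began 135 bp downstream of it, and that with 96.37 lay in the body of the gene. Mafk had 130.02 across its start. Maff had 116.39, over 2 of its 3 listed starts, and 73.25 near its other end.

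Their partners among the members were all marked, 3 of 3 Nfe2l genes and 2 of 2 Bach genes. The related gene Nfe2, examined outside the members, had no interval within 65.5 kb. Nfe2l2 (NRF2), the main activator of antioxidant genes, had 227.28 at chr2:75703185-75705562, and Nfe2l3 101.86. Nfe2l1 (NRF1), which controls proteasome genes, had 2 intervals. The better, 130.27 at chr11:96823416-96824769, lay not at the outer end of the record but over 3 inner starts, and the outer starts had 88.92. Bach1, a haem-sensitive repressor of NRF2 targets, had 129.29 across its start. Bach2, known from B and T cells, had 273.3 at the lower end of its record, which on its plus strand is the upstream end. The interval began 247 bp inside that end. The only start listed for Bach2 in the promoter table lay inside the record, 177057 bp downstream of the interval. Over the Maf, Nfe2l and Bach members together, Nfe2 not counted, 10 of 11 were marked (90.9%, against 30.7% of all protein-coding genes), with Nrl as the exception.

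The proline and acid-rich (PAR) factors Dbp, Tef and Hlf are output genes of the circadian clock, and Nfil3 is a repressor that reads the same element. Their scores were all low: Dbp had 112.61 and 85.86, Tef 101.51 at its inner start, Nfil3 90.17 and 83.63, and Hlf no interval. At Nfil3 the intervals lay 28 bp downstream and 149 bp upstream of the start, which neither covered. Thus 3 of 4 were marked (75%, against 30.7% of all protein-coding genes). None of the 4 had an interval above the list's median score, against 16.7% of all protein-coding genes. With only 4 genes, 0 is near that share.

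**Figure D2:**
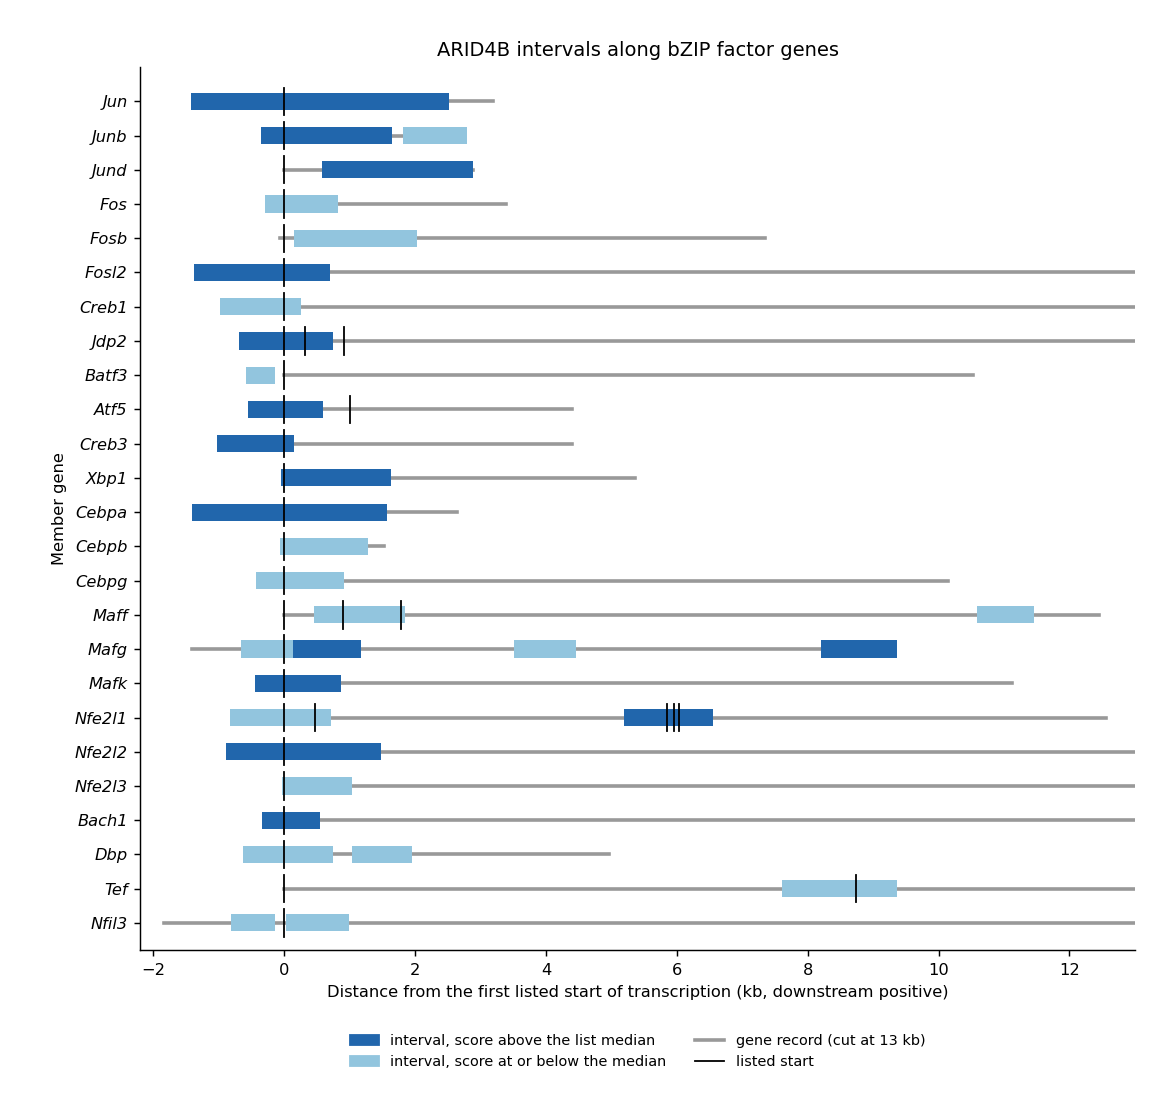
ARID4B intervals (bars) along the 25 marked bZIP genes with a listed start, Bach2 left out because its interval lies 177057 bp from its listed start. The horizontal axis is the distance in kb from the first listed start, downstream positive; grey lines are gene records, black ticks listed starts, and dark bars score above the list median. The bars at Jun, Junb, Cebpa and Cebpb fill much of the gene, the bar at Jund starts after the start site, and the bars at Nfil3 flank it.

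Starts of transcription were listed for 36 of the 44 members and not for Fosl1, Crem, Batf2, Atf6, Cebpd, Cebpe, Maf and Mafa. Among the 26 marked members with a start, the best interval covered a start in 20 (76.9%), against 76.1% of all marked genes. Its midpoint lay downstream of the nearest start in 19 (73.1%), against 77.9%. The median offset was 153 bp into the gene, and 220 bp for all marked genes. In position the members were thus close to other marked genes. In width they were broader, with a median of 1388 bp against 1130 bp. In the short class of genes, the median share of the record under the best interval was 41.5% for members and 18.6% for all marked genes. This share depends on record length, which was not compared within the class, and its part was not tested. The median best score in the short class was 301.2 for members against 135.23. In the middle and long classes the members' median scores, 116.39 and 116.61, were below those of all marked genes, 126.2 and 134.53. More than 1 interval was found at 6 of 32 marked members (18.8%, against 10.7% of marked genes): Junb, Maff, Mafg, Nfe2l1, Dbp and Nfil3. The best interval also marked another protein-coding gene at 8 members (25%, against 28.5%).

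Intervals in this list favoured promoters rich in CpG: 51.4% of genes with a promoter at an observed/expected CpG ratio of 0.6 or more were marked, and 9.28% of genes below that. Among the members the shares on both sides of this limit were alike, but few members lay below it. Of 28 members with a CpG-rich promoter 20 were marked (71.4%), and of 8 with a CpG-poor promoter 6 were (75%). The 6 were Jun, Jund, Xbp1, Nfe2l2, Nfe2l3 and Bach2. Jun (0.59), Nfe2l2 (0.54) and Xbp1 (0.53) lay not far below the limit. For Jund and Bach2 the interval lay away from the listed start, so the ratio was not measured under it. The part of CpG content among the members was not tested. Of the 10 unmarked members with a listed start, 8 had a CpG-rich promoter: Atf1, Atf2, Atf3, Atf4, Atf7, Creb5, Ddit3 and Hlf. The other 2 were Batf and Nrl. Of the 26 marked members with a listed start, 20 had one as well. Counted by promoter, 72.7% of those of unmarked members reached the ratio of 0.6, against 33.7% of those of all unmarked genes. For marked members and all marked genes the shares were 61.1% and 76.7%.

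**Figure D3:**
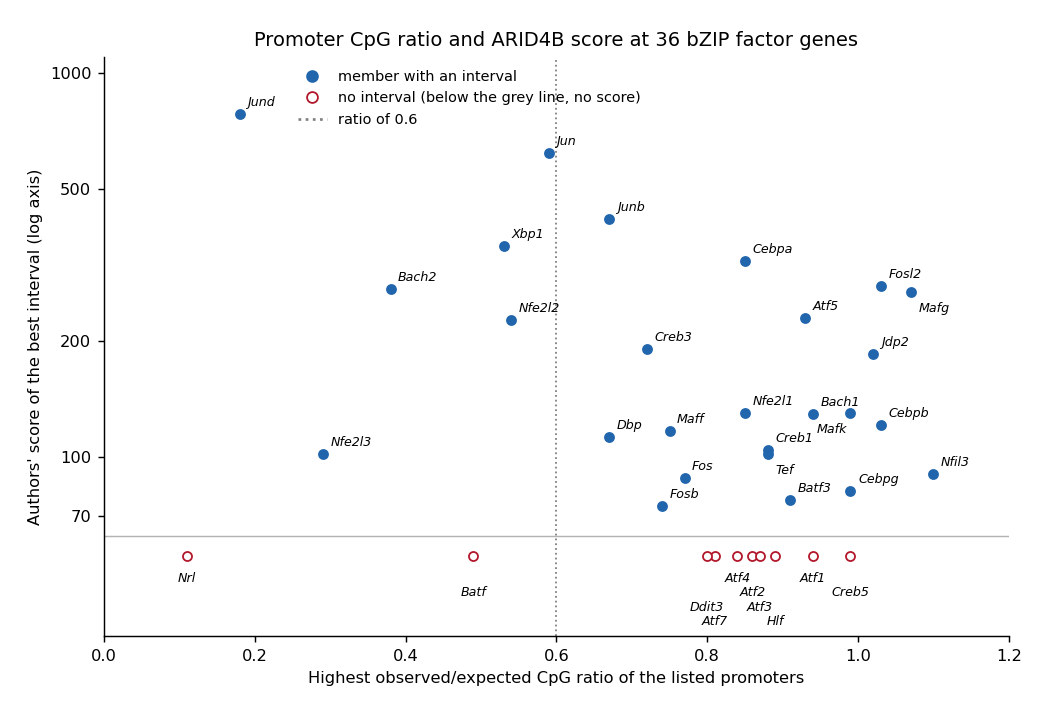
Highest observed/expected CpG ratio among a gene's listed promoters (horizontal axis) against the score of its best ARID4B interval (vertical log axis) for the 36 bZIP genes with a listed start. Filled points are marked genes, open points below the grey line the 10 unmarked ones, and the dotted line is the ratio of 0.6. Jund, Jun, Xbp1 and Bach2 score high left of the line, and 8 of the 10 open points lie right of it. Jun and Xbp1 lie near the line, and the Jund and Bach2 intervals lie away from the promoter measured.

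The CRE, TGACGTCA, was present in 3 of 47 listed member promoters (6.38%), against 2.23% of all promoters of the same 300 bases. They belonged to Maff at its second start, Creb5 at its first and Hlf. Only the promoter of Maff lay in an interval. The 100 bases before each start are printed because the same element stands in a promoter with and in promoters without an interval. Capitals mark TGACGTCA.
Maff, chr15:79347420-79347519, plus strand: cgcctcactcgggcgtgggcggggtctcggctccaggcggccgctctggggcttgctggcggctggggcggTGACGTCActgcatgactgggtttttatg
Creb5, chr6:53287203-53287302, plus strand: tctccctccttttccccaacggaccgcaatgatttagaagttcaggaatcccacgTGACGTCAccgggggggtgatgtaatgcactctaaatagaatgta
Hlf, chr11:90390918-90391017, minus strand: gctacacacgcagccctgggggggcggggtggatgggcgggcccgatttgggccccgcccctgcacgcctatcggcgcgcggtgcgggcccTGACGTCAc
The element began 29 bases before the start in Maff, 45 in Creb5 and 9 in Hlf. The AP-1 element TGANTCA was found in 2 member promoters (4.26%, against 6.99% of all), at Ddit3 and the inner start of Creb5, both unmarked. TTGCNNAA was found at Jund, Xbp1 and the first start of Maff (6.38%, against 10.2% of all), and CCAAT in 18 of 47 (38.3%, against 38.2%).

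The inner promoter of Nfe2l1 stood out by its sequence. Its window held 6 copies of CCAAT, and 20 of 21263 promoters (0.0941%) held 6 or more, a limit set from this promoter's own count. The 250 bases before the start are printed to show how the copies are spaced; they lie wholly in the better of the gene's intervals, and capitals mark the copies, which read ATTGG on the gene's strand.
Nfe2l1, chr11:96824128-96824377, minus strand: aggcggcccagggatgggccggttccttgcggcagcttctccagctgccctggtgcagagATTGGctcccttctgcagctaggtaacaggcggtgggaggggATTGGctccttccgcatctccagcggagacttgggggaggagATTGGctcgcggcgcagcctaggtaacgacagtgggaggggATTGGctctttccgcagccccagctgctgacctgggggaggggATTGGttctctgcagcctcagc
The 5 copies before the start were spaced by 41 to 43 bases, as in a tandem repeat, and the sixth began past the start. How reads from such a repeat were mapped is not given in the sources used here, and its part in the score was not tested.

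Several bZIP genes are neighbours. Fos, Jdp2 and Batf lie in a row on chromosome 12, Batf3 and Atf3 on chromosome 1, and Cebpg and Cebpa on chromosome 7. Fos (87.78) and Jdp2 (185.69), 121.0 kb apart, were marked and Batf, 46.8 kb further on, was not. Batf3 (77.07) was marked and Atf3, 61.4 kb away, was not. Cebpg (81.41) and Cebpa (324.46), 62.7 kb apart, were both marked. No interval lay wholly in any of the 4 gaps between them.

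**Figure D4:**
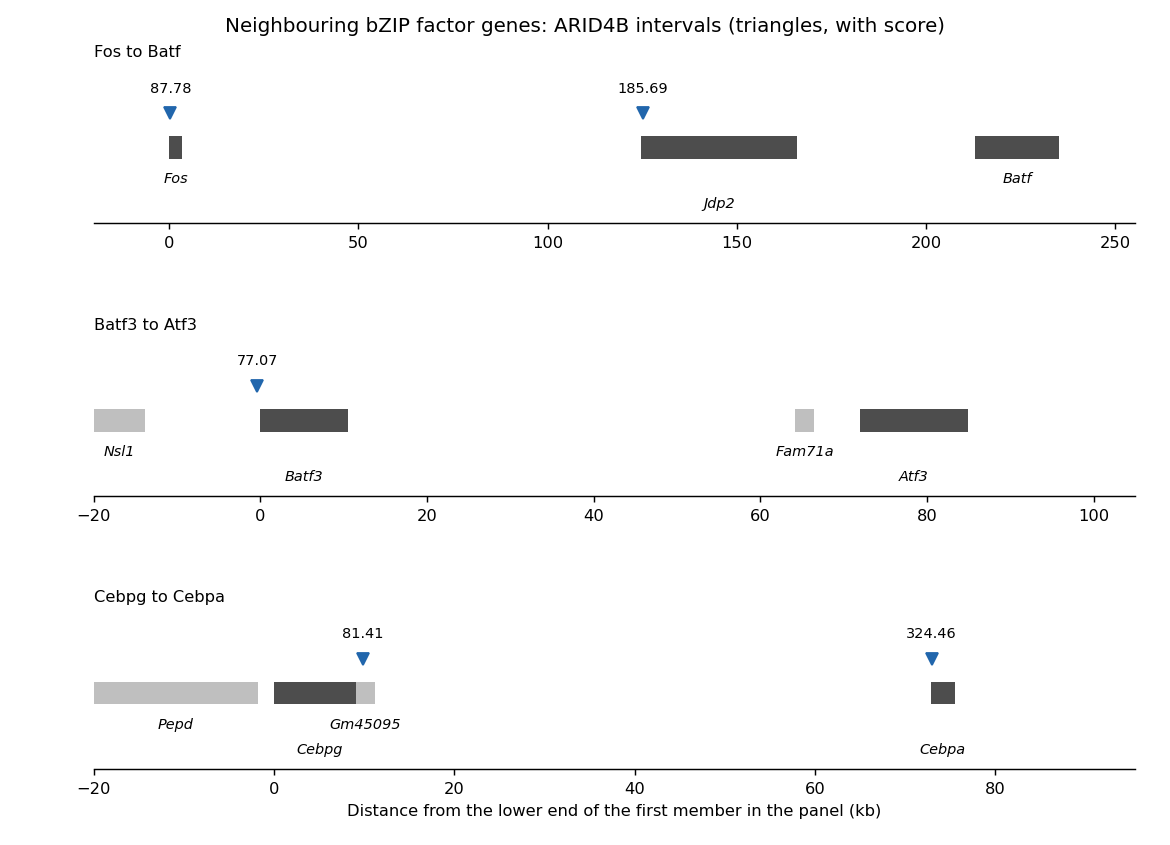
ARID4B intervals (triangles, with the authors' score) at 3 runs of neighbouring bZIP genes; the horizontal axis is the distance in kb from the lower end of the first member in each panel. Dark bars are bZIP genes and light bars other protein-coding genes. The 5 triangles sit at an end of Fos, Jdp2, Batf3, Cebpg and Cebpa, and none at Batf or Atf3.

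Of 8 further bZIP genes examined outside the 44, 4 were marked (50%, against 30.7% of all protein-coding genes). Crebzf had 238.33, Crebl2 94.21, Creb3l2 92.05 and Creb3l1 83.16, and Atf6b, Creb3l3, Creb3l4 and Nfe2 had none.

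Among genes that act on these factors, 9 of 17 kinases and other upstream regulators were marked (52.9%, against 30.7% of all protein-coding genes). Keap1, which holds NRF2 for degradation, led with 224.29, followed by the protein kinase A catalytic subunit Prkaca (180.87). The stress-activated kinase genes Mapk14 (177.84, from an interval shared with Slc26a8) and Mapk9 (172.33) came next. Of the kinases of eIF2 alpha, which raise Atf4 translation, Eif2ak1 (106.01) and Eif2ak4 (73.45) were marked and Eif2ak2 and Eif2ak3 were not. Ern1, which splices the Xbp1 message, and Mbtps1 and Mbtps2, which cut Atf6, were not marked. Of 11 coactivators and inhibitors 7 were marked (63.6%, against the same 30.7%), with the acetyltransferase Ep300 (488.61), Trib1 (392.56), the eIF2 alpha phosphatase subunit Ppp1r15b (349.75) and Trib2 (271.85) first. Other immediate early genes were marked in 8 of 9 cases (88.9%, against 30.7%), led by Ier5 (538.93), Srf (506.52), Ier2 (473.38) and Egr1 (273.18). At all 4 the score was above those of Fos and Fosb.

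Target genes of the factors were marked in shares that differed from list to list, against 30.7% of all protein-coding genes. Of 9 NRF2 targets 3 were (33.3%), Srxn1 with 140.87, Gclm with 86.09 and Gclc with 82.9. Of 8 targets of XBP1 and ATF6 3 were (37.5%), Edem1 with 328.04, Sdf2l1 with 134.11 and Pdia6 with 103.77. Of 8 ATF4 targets 4 were (50%), Vegfa with 397.09, Sesn2 with 267.05, Herpud1 with 138.0 and Psat1 with 73.51. None of the 6 spermatid genes known as Crem targets was, among them the protamine genes Prm1 and Prm2. Of the clock genes, which stand upstream of the PAR factors, 8 of 9 were marked (88.9%). Cry1 (325.99), Clock (312.21), Cry2 (189.46) and Nr1d2 (163.8) led, each above every PAR factor. The other marked clock genes ran from 78.61 to 131.17, on both sides of the best PAR factor, Dbp with 112.61. Only Arntl was unmarked.

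**Figure D5:**
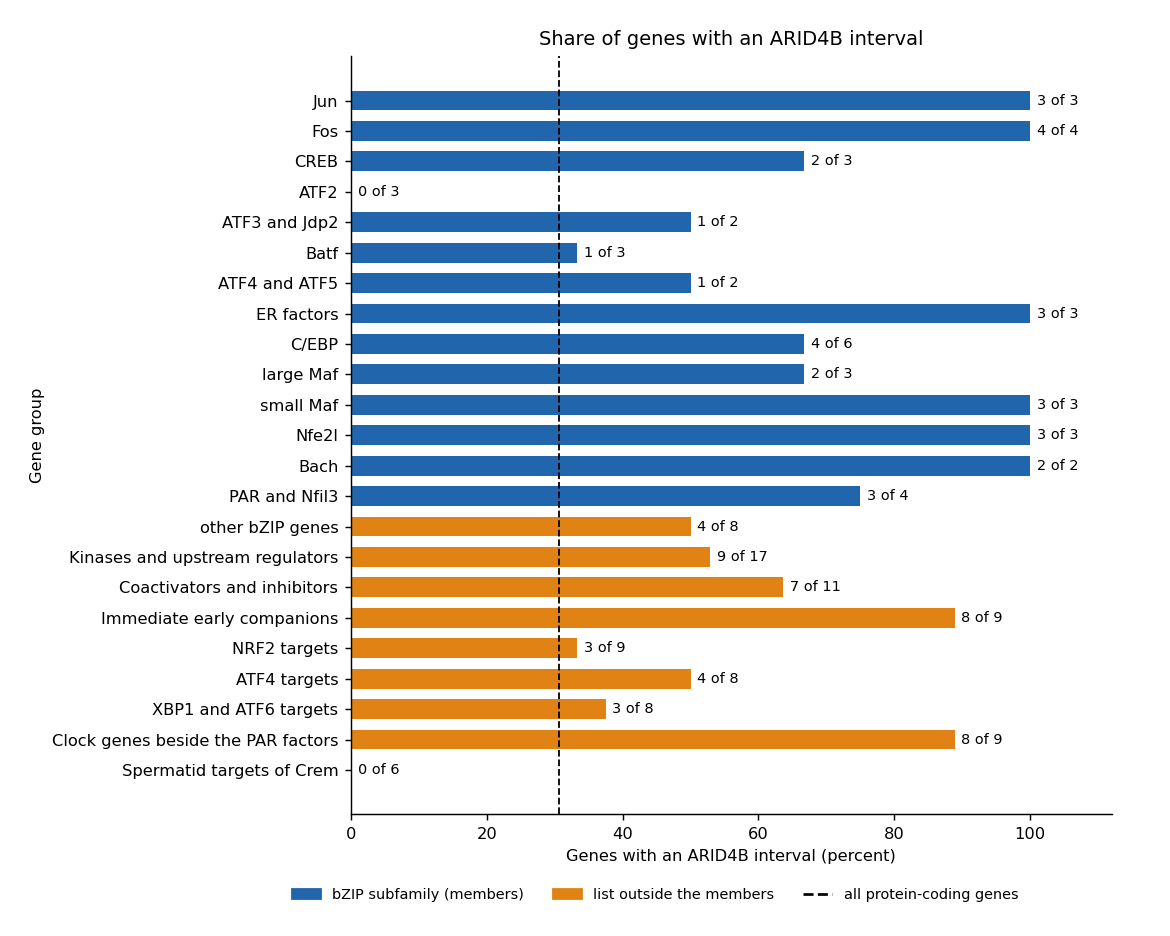
Percentage of genes with an ARID4B interval (horizontal axis) in each bZIP subfamily (blue) and in lists of related genes (orange), with the counts beside the bars. The dashed line is the share of all protein-coding genes, 30.7%. Subfamilies hold 2 to 6 genes each, so a single gene moves a bar widely; the ATF2 group and the spermatid targets have no bar.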

How the data were processed

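The data are 1 list of ARID4B ChIP-seq intervals, called against input. BWA and MACS are named in the submitters' processing notes; versions and parameters: not given in the sources used here. Each interval has a score that the authors deposited under a name that calls it a p-value although all exceed 1; scores were used within this list only. The notes name mm9 and the deposited list mm10. Read in place on the RefSeq table of GRCm38.p6, 59.4% of intervals covered a listed start, and 1.79 or 1.6% when shifted by 5 kb, so GRCm38 was used. Positions count from 1.

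The ChIP and input groups hold 1 library each; no test was made. The members, subfamilies and lists were chosen with earlier results of these data known. The naming rule took every member, the listed bZIP genes outside them and up to 4 best-scoring genes of each list; unmarked list genes were named after their values were seen. Some list genes are not reported here and were left out of the counts. Starts, strand and sequences came from RefSeq's promoter table (250 bases before to 50 after a start). The CpG ratio is the CpG count times length over the product of C and G counts. The CArG box and TGACATCA were added after the data were seen; no member promoter held a CArG box (1.52% of all). Overlaps were computed with pandas 2.3.3 in Python 3.11.15 and tested on simulated data. Alternatives are in the closing section.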

Additional observations from a re-analysis of the deposited data

How the results depend on the processing

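Of 150 values under alternative settings 133 stayed within set limits. For counts the limit was 1.5 times the main value. For the share of all protein-coding genes it was the 95% binomial interval. For the median score it was the standard deviation of the members' best scores. Those scores ran from 70.37 to 876.04, so that limit was loose and could hardly be passed. It does not bear on the order of the medians against all marked genes, which changed with the setting. With only intervals above the median score, marked members fell from 32 to 19 (43.2%, against 16.7% of protein-coding genes), Fos and C/EBP genes to 2 each, CREB, Batf and PAR genes to 0, bZIP genes outside the members to 1, kinases and upstream regulators to 4, NRF2 targets to 1 and clock genes to 5. With the gene record alone 30 members and 0 Batf genes were marked. With 5 kb either side members stayed at 32 and spermatid targets came to 1. Within 1 kb of an end of the record members were 30, PAR genes with Nfil3 1 and immediate early companions 5. With the midpoint required members were 31. Without shared intervals members were 26 (59.1%, against 22.4%), C/EBP genes 2 and the ATF4 and ATF5 pair 0. The members' median best score ranged from 129.66 to 188.52 over these settings, apart from the one that keeps only intervals above the median score, where it was 279.31 (188.24 for all marked genes). Weighted to the members' length classes, the share of protein-coding genes was 28.4% in place of 30.7%. Within 1 kb of a listed start, an alternative chosen after seeing the data, 25 of 36 members were marked (69.4%, against 28.0%). The cause of these shifts was not tested. No paired analysis was possible because there was 1 library per group. Depth is unknown.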

Other observations

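The elements that bZIP factors read were spread unevenly over promoters under an interval. Of 475 listed promoters of protein-coding genes with the CRE, TGACGTCA, 188 lay under an ARID4B interval (39.6%), against 23.9% of all 21263. With the AP-1 element TGANTCA the share was 12% (178 of 1486), with the C/EBP element TTGCNNAA 14.6% (316 of 2162), and with the AP-1 variant TGACATCA 7.96% (62 of 779). CpG content moved with these shares: the median observed/expected CpG ratio was 0.823 in promoters with the CRE, which itself holds a CpG, 0.263 with TGANTCA, 0.335 with TTGCNNAA and 0.181 with TGACATCA, and 0.567 overall. Its part in the shares was not tested. Of the 20 promoters with 6 or more copies of CCAAT, a limit set from that of Nfe2l1, which is among them, 7 lay under an interval.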
